A study of Patiria miniata with 46 samples.

Results

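Irx, Dbx, Lhx1-5 and Otp are 4 homeobox genes of the bat star Patiria miniata whose relatives mark intermediate domains of the nervous system in other animals. They were taken by the symbol that stands before the assembly tag in the row names of the deposited count table. They are 4 of 66 loci that carry a gene symbol and 4 of 23869 loci in all, with 1 row each (Irx_V2_PB.20165.1, Dbx_V2_PB.19600.1, Lhx1-5_V2_PB.9719.2 and Otp_V2_PB.12126.1). Over all libraries Irx had 6008 counts, Dbx 739, Lhx1-5 5526 and Otp 378. The symbols are those the authors gave, and no genome coordinates or sequences of these rows were used here.

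The study asked where along a sea star arm each transcript is found. Arms of young animals were frozen and cut into serial cryosections along one of 3 axes, and polyadenylated RNA of each section made 1 library, 46 in all. The proximo-distal series, which runs along the arm between disc and tip, has 22 sections, and the oral-aboral series, between the mouth-bearing face and the opposite face, has 8. Both were cut from specimen 1. The left-right series has 16 slices of specimen 2. All are untreated animals. The labels give a section number but not which end of the arm, which face or which side section 1 lay on, so directions are given below by section number. Each section is a whole slice of the arm with all its tissues, and there was 1 section per position. The p-values therefore measure the spread of sections around a fitted shape within 1 arm, and neighbouring sections are not independent samples. In such bulk slices fewer cells that express a gene and less RNA per cell cannot be told apart.

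Iroquois genes such as Irx encode TALE-class homeodomain proteins that subdivide the developing brain in vertebrates, and in sea urchin embryos an Irx gene is active in aboral ectoderm. Dbx genes encode homeodomain repressors that set apart classes of interneuron progenitors in the vertebrate neural tube. Lhx1-5 belongs to the LIM-homeodomain genes, which act in vertebrate interneurons and in gastrula organisers. Otp (Orthopedia) is needed for neuroendocrine cells of the vertebrate hypothalamus, and in sea urchin embryos it acts in oral ectoderm cells that influence the growth of the skeleton.

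The libraries held 196002 to 680685 counts in the proximo-distal series, 2573762 to 6921408 in the oral-aboral series and 250704 to 1591759 in the left-right series. One unnamed locus took 12.2% to 50.3% of the counts in proximo-distal sections 12 to 22, against 0.453% to 2.16% in sections 1 to 11. Levels are therefore given as normalised CPM, counts per 1000000 of a library size corrected by TMM, a scaling that a few abundant loci affect little. They compare sections of 1 series for 1 gene, and are not compared between genes because transcript lengths were not used. Of the cell type marker lists, the endoderm list was matched by 1 of its 8 genes (FoxA, a forkhead factor of the gut). None of the 9 neuron, 7 muscle and coelom and 4 skeleton markers was matched, so the tissue make-up of a section could be followed only by FoxA.

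**Figure D1:**
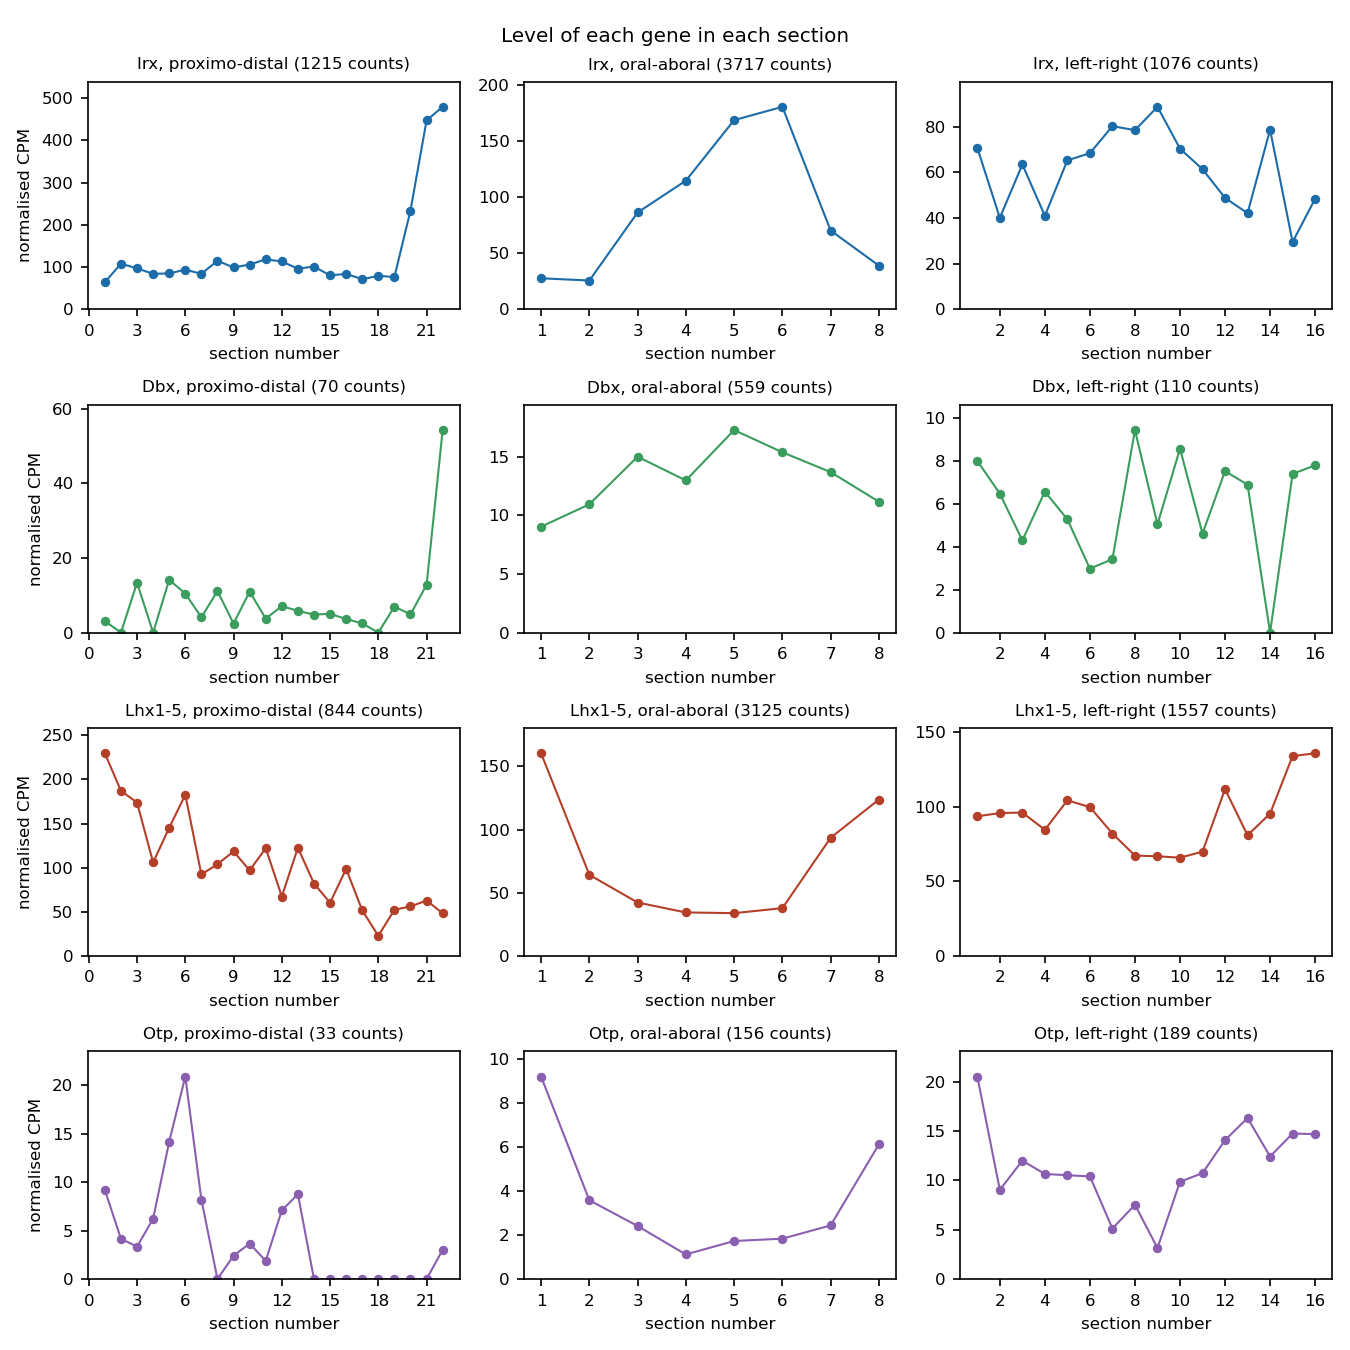
Normalised CPM (vertical axis, linear and starting at 0, with its own range in each panel) of Irx, Dbx, Lhx1-5 and Otp, from top to bottom, against section number in the proximo-distal, oral-aboral and left-right series, from left to right. Each point is 1 section, and the number of counts behind a panel stands in its title. Irx peaks in proximo-distal sections 20 to 22 and in oral-aboral sections 3 to 6, where Lhx1-5 and Otp are lowest on the oral-aboral axis.

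Along the proximo-distal axis Irx was flat over most of the arm and high in the last 3 sections. It had 234.0, 447.5 and 479.6 normalised CPM in sections 20, 21 and 22. In sections 16 to 19 it had 84.0, 71.3, 79.2 and 76.7, no higher than in sections 1 to 7, where the lowest value was 64.3, the median 85.0 and the highest 108.1. In sections 8 to 15 it lay between 80.3 and 118.3. Sections 21 and 22 had overlapping counting intervals, section 20 stood apart from both and from all earlier sections, and below it each section in the order of levels overlapped the next. Pooled over counts on the TMM scale, Irx was 4.18-fold higher in sections 20 to 22 than in sections 1 to 19 (95% exact interval 3.72 to 4.68, counting error only). Against the nearest sections, 16 to 19, it was 5.12-fold higher (4.11 to 6.43). Sections 20 to 22 were chosen after seeing the data and are the 3 with the highest Irx, so these intervals do not cover that choice.

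A straight line through the 22 sections (edgeR's quasi-likelihood test, Benjamini-Hochberg adjustment over all loci, threshold 0.05) gave Irx a log2 change of 1.87 ± 0.40 (SE) between section 1 and section 22 (adjusted p = 0.000484). A spline with 3 degrees of freedom, which tests for any smooth pattern, gave an adjusted p of 1.46e-09. Without sections 20 to 22 the line had a log2 change of -0.13 (adjusted p = 0.758) and the spline an adjusted p of 0.212. The change therefore rests on those 3 sections. Neighbouring sections also left the line together, with a correlation of 0.733 between the residuals of one section and the next, so the p of the line is too small.

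FoxA was at 280.3, 728.3 and 1566 normalised CPM in sections 20, 21 and 22. It had already been at 67.3 to 474.3 in sections 12 to 19, where Irx stayed at 71.3 to 113.3, against 0 to 22.0 in sections 1 to 11. The part of FoxA-expressing tissue in the level of Irx was not tested. Without the dominant locus the change of Irx was 1.96 (adjusted p = 0.000303), and with libraries scaled by total count alone it was 1.45 (adjusted p = 0.0205).

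Dbx was sparse along this axis, with 70 counts in 22 sections, and did not pass the filter on low counts. Its highest level was 54.3 normalised CPM in section 22, followed by 14.2 in section 5, 13.4 in section 3 and 12.8 in section 21. It was at 0 in sections 2, 4 and 18. Of the 33 counts in sections 16 to 22, 18 lay in section 22 and 9 in section 21, and sections 1 to 7 had 15. Pooled over the same sections, chosen after seeing the data, Dbx was 3.35-fold higher in sections 20 to 22 than in sections 1 to 19 (2.01 to 5.53, 29 against 41 counts). When Dbx and Otp were kept in the edgeR fit beside the filtered loci, a choice made after seeing the data, the line gave Dbx a log2 change of 1.73 (adjusted p = 0.0990) and the spline an adjusted p of 0.00101. Without section 22 these were 0.05 (adjusted p = 0.965) and 0.272. The pattern of Dbx thus rests on 1 section.

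Lhx1-5 fell along the arm. Its mean was 56.0 ± 22.6 normalised CPM over sections 16 to 22, against 159.5 ± 48.4 over sections 1 to 7 (SD, n = 7 each), with 96.7 ± 24.6 in the 8 sections between them. The lowest, median and highest values were 22.6, 52.3 and 98.6 in sections 16 to 22, against 92.3, 173.9 and 229.7 in sections 1 to 7. The windows overlapped only by section 16, which lay above section 7. Pooled, the level in sections 16 to 22 was 0.367 of that in sections 1 to 7 (0.302 to 0.445). The fitted log2 change was -2.06 ± 0.28 (edgeR, adjusted p = 1.28e-06), and -2.28 (adjusted p = 5.49e-06) without sections 20 to 22. Unlike Irx, Lhx1-5 had like levels in sections 20 to 22 and 16 to 19, with a pooled ratio of 1.03 (0.738 to 1.44), and its residuals were not linked from section to section (correlation -0.0885). FoxA ran the other way over the 22 sections (Spearman's rho -0.796, as a description), and its part was not tested.

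Otp was found almost only in the lower-numbered sections. It had 32 counts in sections 1 to 13, where its level reached 20.9 normalised CPM in section 6 and was 0 in section 8. It had 0 of 3947476 counts in sections 14 to 21 and 1 count in section 22. For sections 14 to 21 the floor of 3 counts is 0.760 CPM by total count. That scale is not the one of normalised CPM, since 1 locus took a large share of the counts in these sections. Sections 16 to 22 together had 1 count and sections 1 to 7 had 23, a pooled ratio of 0.0380 (0.000923 to 0.234). Only section 6, with 8 counts, can be set apart from other single sections at this depth. Its counting interval of 9.02 to 41.1 normalised CPM lay above those of sections 8, 14, 20 and 21 (upper ends 6.85, 8.90, 8.99 and 5.26). The lowest of sections 1 to 7 and the highest of sections 16 to 22 held 1 count each. In the fit that kept it, the line fell by 3.88 on the log2 scale (edgeR, adjusted p = 0.00477), but with log2 of the total count as a covariate the change was -2.72 and did not pass (adjusted p = 0.139).

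Of the 2 genes that passed the filter, 1 rose and 1 fell along this axis, where 20.3% of 11067 tested loci rose and 19.1% fell. Both had some pattern by the spline, as did 53.4% of all loci, and in neither were sections 16 to 22 and 1 to 7 free of overlap, as they were in 11.9%. The 2 calls are thus of a kind common along this arm. In DESeq2 and limma-trend the same 2 genes passed.

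The oral-aboral series is the most deeply sequenced and gave the clearest contrast between the genes. Irx and Dbx were higher in the inner sections 3 to 6, and Lhx1-5 and Otp were higher in the outer sections 1, 2, 7 and 8.

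Irx had 86.4, 114.8, 168.8 and 180.6 normalised CPM in inner sections 3, 4, 5 and 6, against 27.7, 25.7, 70.3 and 39.0 in outer sections 1, 2, 7 and 8. Every inner section lay above every outer section, with means of 137.6 ± 44.6 and 40.7 ± 20.6 (SD, n = 4 each), 3.38-fold higher inside. The peak was off-centre, in sections 5 and 6, whose counting intervals overlapped, and sections 3 and 7, and also 1 and 2, overlapped in the same way. The remaining neighbours in the order of levels differed beyond counting error. The fitted curvature, the log2 difference of the middle over the ends of the series, was 2.29 ± 0.40 (edgeR, adjusted p = 0.00118).

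Dbx had 15.0, 13.0, 17.3 and 15.4 normalised CPM in inner sections 3 to 6, against 9.04, 10.9, 13.7 and 11.2 in outer sections 1, 2, 7 and 8. The groups overlapped, since section 7 lay above section 4. In the order of levels no section differed from the next beyond counting error. Further apart, the counting intervals of sections 5 and 3 (14.2 to 20.8 and 12.3 to 18.2) lay above that of section 1 (6.91 to 11.6). All other pairs of sections overlapped. The means were 15.2 ± 1.76 inside and 11.2 ± 1.91 outside, 1.35-fold higher inside, and the curvature was 0.65 ± 0.19 (edgeR, adjusted p = 0.0204). This call was lost without section 1, 5 or 8 (adjusted p = 0.139, 0.0723 and 0.155), for the 4 inner against the 4 outer sections as groups (adjusted p = 0.0649), and the spline gave an adjusted p of 0.0896.

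Lhx1-5 had 42.2, 34.3, 33.8 and 37.7 normalised CPM in inner sections 3 to 6, against 160.3, 64.1, 93.4 and 123.7 in outer sections 1, 2, 7 and 8. The 4 inner sections were alike, each overlapping the next in counting error, and the 4 outer sections all differed from one another beyond it. The mean was 37.0 ± 3.87 inside and 110.4 ± 41.2 outside, 2.98-fold higher outside, and the curvature was -2.17 ± 0.21 (edgeR, adjusted p = 8.08e-05).

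Otp, with 156 counts, had 2.41, 1.12, 1.73 and 1.83 normalised CPM in inner sections 3 to 6, against 9.19, 3.58, 2.43 and 6.11 in outer sections 1, 2, 7 and 8. The groups did not overlap, but section 7 lay only just above section 3. The means were 1.77 ± 0.53 inside and 5.33 ± 3.00 outside, 3.01-fold higher outside, and the curvature was -2.36 ± 0.29 (edgeR, adjusted p = 0.000181). Without both end sections the curvature was -2.20 with an adjusted p of 0.0825.

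All 4 genes passed the test of curvature, 2 in each direction, in edgeR, DESeq2 and limma-trend. Curvature was common on this axis, with 27.0% of 20395 loci higher inside and 23.3% lower. Inner and outer sections did not overlap in 3 of the 4 genes and in 39.1% of all loci. A pattern of any shape passed in 3 of the 4 (all but Dbx), and in 43.2% of all loci. FoxA had 489.1, 534.5, 542.6 and 480.8 normalised CPM in inner sections 3 to 6, against 22.8, 192.2, 67.3 and 12.6 in outer sections 1, 2, 7 and 8, so it was high where Irx was. Irx and FoxA parted in the outer sections: section 2 had more FoxA than section 7, and Irx was 25.7 in section 2 and 70.3 in section 7. The part of FoxA-expressing tissue in these differences was not tested.

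Between the faces, measured as the linear term from section 1 to section 8, edgeR called 0 of the 4 genes, and so did DESeq2 and limma-trend. One, Irx, had an unadjusted p under 0.05. Its log2 difference was 1.12 ± 0.45 (adjusted p = 0.167, 95% interval 0.11 to 2.13), and 2.40 without section 1 (adjusted p = 0.0162). That of Dbx was 0.35 ± 0.23 (adjusted p = 0.400), and that of Otp -0.61 ± 0.32 (adjusted p = 0.295). Lhx1-5 was nearly even, at -0.01 ± 0.25 (adjusted p = 0.993, interval -0.57 to 0.55). Over all loci 5.68% were higher towards section 8 and 2.74% lower.

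From one side of the arm to the other, in the second animal, the differences were smaller. Irx had 68.4, 80.2, 78.5, 88.7, 70.4 and 61.4 normalised CPM in the central sections 6 to 11, against a lowest, median and highest value of 29.5, 48.6 and 78.7 in the 10 outer sections. Outer sections 1, 3, 5 and 14 lay within the central range, and section 14 is the shallowest library. The means were 74.6 ± 9.77 (n = 6) in central and 52.8 ± 15.8 (n = 10) in outer sections. The log2 difference of the middle over the edges was 0.61 ± 0.27 and did not pass (edgeR, adjusted p = 0.116, 95% interval 0.04 to 1.18). With total count scaling it was 0.98 and passed (adjusted p = 0.0121), but that scaling also put the median of all loci at 0.49, against 0.12 with TMM. Without section 1 it was 0.94 (adjusted p = 0.0413).

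Lhx1-5 had 99.6, 81.9, 67.2, 66.7, 65.8 and 69.8 normalised CPM in central sections 6 to 11, against a lowest, median and highest of 80.8, 95.8 and 135.7 in the outer sections. Sections 8 to 11 were the lowest 4 of the series, and sections 15 and 16 the highest. The means were 75.2 ± 13.4 in central and 103.1 ± 18.8 in outer sections. The difference of the middle over the edges was -0.64 ± 0.22 (edgeR, adjusted p = 0.0383). It lay near the threshold, and 11 of the 16 fits that left out 1 section did not pass it, the highest adjusted p being 0.116, without section 16. With total count scaling it was -0.27 (adjusted p = 0.378).

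Otp had 10.4, 5.12, 7.53, 3.15, 9.87 and 10.7 normalised CPM in central sections 6 to 11, against a lowest, median and highest of 9.05, 13.3 and 20.5 in the outer sections. Sections 7 to 9 were the lowest and section 1 the highest. The means were 7.80 ± 3.12 in central and 13.5 ± 3.35 in outer sections, and the difference of the middle over the edges was -1.11 ± 0.37 (edgeR, adjusted p = 0.0376). It passed in 11 of 16 fits that left out 1 section and failed most clearly without section 1, where it was -0.84 (adjusted p = 0.212). With total count scaling it was -0.75 (adjusted p = 0.145).

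Dbx had 2.97, 3.41, 9.42, 5.03, 8.55 and 4.60 normalised CPM in central sections 6 to 11, against a lowest, median and highest of 0, 6.72 and 7.98 in the outer sections. Neither central nor outer sections stood out, with means of 5.67 ± 2.69 and 6.01 ± 2.40. The difference of the middle over the edges was -0.24 ± 0.46 (edgeR, adjusted p = 0.764, 95% interval -1.19 to 0.71). In section 14 its count of 0 allows up to 12.4 normalised CPM, above its level in every other section of the series.

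Of the 4 genes, 0 were thus higher in the middle by edgeR, DESeq2 or limma-trend and 2 lower, where 12.9% of 16523 loci were higher and 8.96% lower. Irx was the gene with an unadjusted p under 0.05 but no call. Central and outer sections overlapped in all 4 genes and were free of overlap in 1.63% of loci. Only Lhx1-5 had a pattern by the spline (adjusted p = 0.0344), as did 25.6% of loci. That call was kept in 8 of 16 fits that left out 1 section, with adjusted p up to 0.122 (without section 15), and was lost with total count scaling (adjusted p = 0.163), no low-count filter (adjusted p = 0.0559) and without both end sections (adjusted p = 0.136). The slope from section 1 to section 16 was called for 0 of the 4 by all 3 tools, with 0 at an unadjusted p under 0.05, and for 0.920% of loci upwards and 0.151% downwards. The 4 slopes lay between -0.36 and 0.26, with adjusted p from 0.698 to 0.904. FoxA was at 41.6 to 123.8 normalised CPM in central sections and 0 to 43.2 in outer sections, and its part was not tested.

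**Figure D2:**
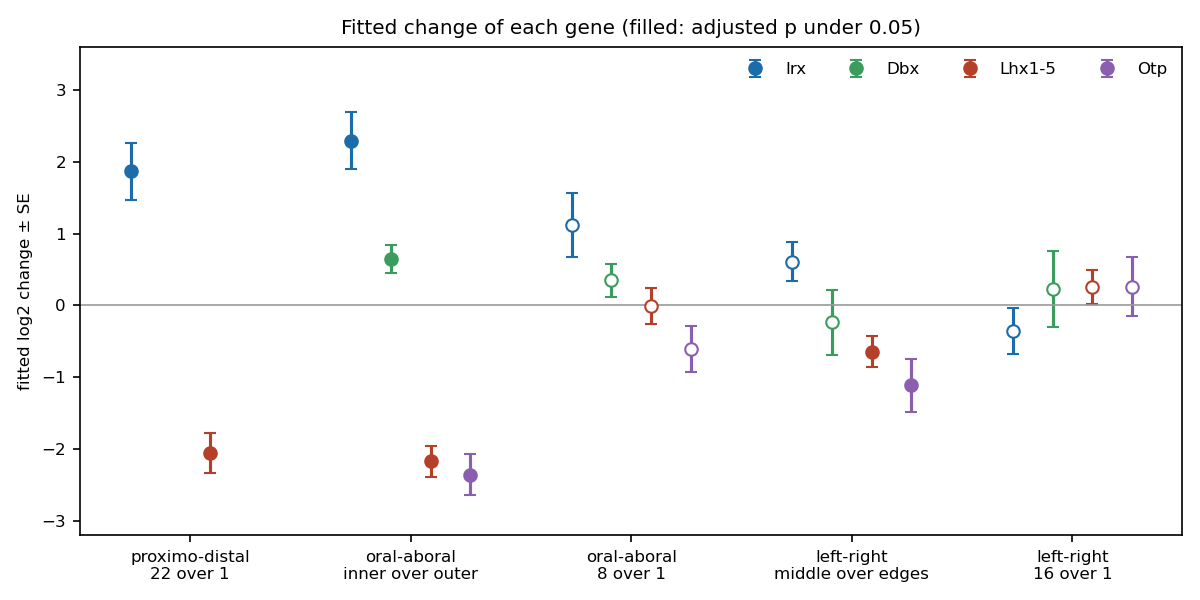
Fitted log2 change (vertical axis) of each gene with its standard error for the 5 one-term contrasts of edgeR (horizontal axis): section 22 over 1, inner over outer, section 8 over 1, middle over edges, and section 16 over 1. Inner over outer and middle over edges are the fitted curvature, the middle over the ends of the series, and not differences of group means. Filled points passed an adjusted p of 0.05, and Dbx and Otp have no proximo-distal point because they did not pass the filter on low counts. Irx lies above 0 and Lhx1-5 below 0 in the proximo-distal, inner and middle contrasts, though the middle contrast of Irx did not pass.

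In the ratio of 2 of these genes within a library, library size cancels where both have counts, and transcript length cancels in a change of the ratio. Where a gene has few counts or none, as Otp and Dbx do along the arm, the ratio depends on depth and on the number added to each count. For each of the 6 pairs, log2 of the ratio of counts (each count plus 0.5) was compared between windows of each series by a two-sided exact permutation test over sections, with Benjamini-Hochberg adjustment over the 18 tests. With 4 against 4 sections the smallest p this test can give is 0.0286.

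Irx over Lhx1-5 differed between the windows of all 3 series, and was higher in proximo-distal sections 16 to 22, in inner and in central sections. In counts, Irx was 4.17, 7.14 and 9.94 times Lhx1-5 in proximo-distal sections 20, 21 and 22, against 0.280 in section 1 and 0.514 to 0.911 in sections 2 to 7. The mean log2 ratio was 2.32 ± 0.53 (SE) higher in sections 16 to 22 than in sections 1 to 7 (exact permutation test, adjusted p = 0.00524). Without sections 20 to 22 the difference was 1.42 (exact permutation test, adjusted p = 0.0545). Across the oral-aboral series the ratio of counts was 2.05, 3.34, 5.00 and 4.79 in inner sections 3 to 6, against 0.173, 0.401, 0.752 and 0.315 in outer sections 1, 2, 7 and 8. Irx was thus the more counted of the pair in every inner section and the less counted in every outer one. Which gene has more counts also depends on transcript length, so only the change is read. The log2 difference was 3.31 ± 0.53 (exact permutation test, p = 0.0286, adjusted p = 0.0468). Inner and outer sections did not overlap in either gene alone, in opposite directions, so the ratio had to separate them. This p was thus fixed by the levels given above and adds no support to them.

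In the left-right series the ratio was 0.687, 0.979, 1.17, 1.33, 1.07 and 0.879 in central sections 6 to 11. In the 10 outer sections it reached 0.756 in section 1 and 0.826 in section 14 and was lowest, 0.220, in section 15. The log2 difference of central over outer sections was 0.99 ± 0.22 (exact permutation test, adjusted p = 0.00524), although Irx alone did not pass on this axis. It lay between 0.86 and 1.10 in the 16 tests that left out 1 section, all of which passed (exact permutation tests, adjusted p up to 0.0120).

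**Figure D3:**
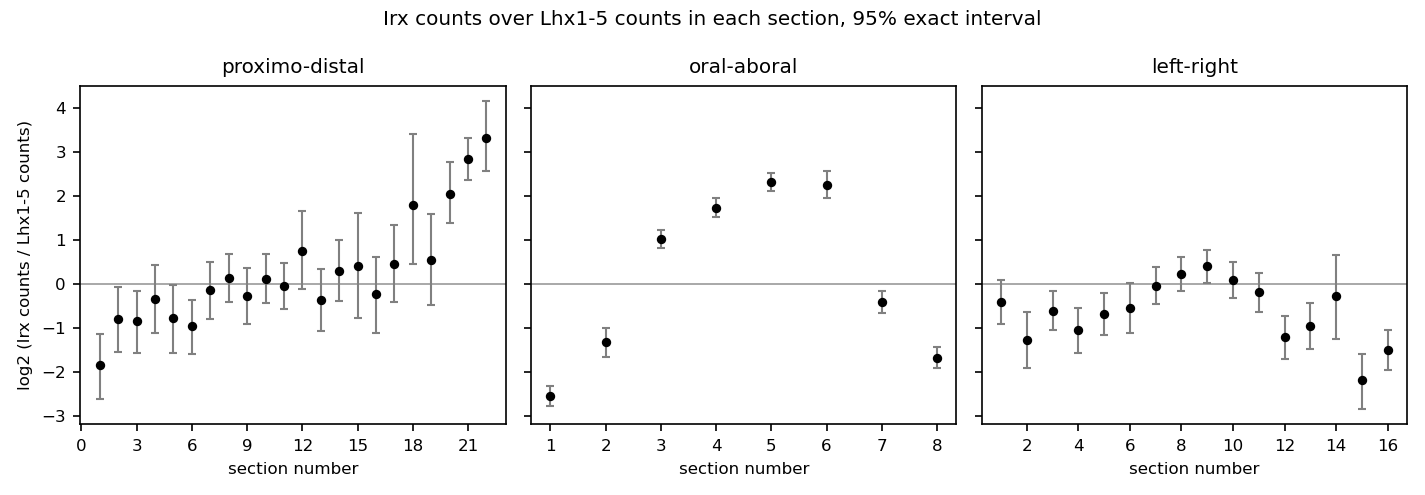
Log2 of Irx counts over Lhx1-5 counts (vertical axis) against section number in the 3 series, with the exact 95% interval from the counts of that section. Points above the line at 0 have more Irx than Lhx1-5 counts, as in oral-aboral sections 3 to 6. Transcript lengths were not used, so this line does not mark equal levels of the genes. Proximo-distal sections 20 to 22 are the highest of their series at ratios of 4.17, 7.14 and 9.94.

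Irx over Otp also changed in each series. For proximo-distal sections 16 to 22 over 1 to 7 the log2 difference was 3.39 ± 0.63 with 0.5 added to each count and 2.12 with 2 added (exact permutation test, adjusted p = 0.00524 each). Otp had 0 counts in sections 16 to 21, so the size of this difference is set by the number added. The difference was 3.24 ± 0.75 for inner over outer sections (exact permutation test, adjusted p = 0.0468). That p was likewise fixed, since inner and outer sections overlapped neither in Irx nor in Otp, in opposite directions. For central over outer sections the difference was 1.40 ± 0.38 (exact permutation test, adjusted p = 0.00524). Irx over Dbx differed by 0.39 ± 0.63 between the proximo-distal windows and did not pass (exact permutation test, adjusted p = 0.573), a test made wide by the few counts of Dbx. On the oral-aboral axis Irx outran it, with 1.38 ± 0.32 for inner over outer sections (exact permutation test, adjusted p = 0.0468). In the left-right series the difference was 0.68 ± 0.39 (exact permutation test, adjusted p = 0.181).

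Dbx over Lhx1-5 and Dbx over Otp were both higher in inner than in outer sections, by 1.94 ± 0.38 and 1.86 ± 0.55 on the log2 scale (exact permutation test, adjusted p = 0.0468 each). The p of Dbx over Lhx1-5 was also fixed by the levels given above and adds no support to them. Dbx was at least 13.0 normalised CPM inside and at most 13.7 outside, while Lhx1-5 was at most 42.2 inside and at least 64.1 outside. Along the arm Dbx over Lhx1-5 and Dbx over Otp were 1.93 ± 0.75 and 3.00 ± 0.71 higher in sections 16 to 22 than in 1 to 7 (exact permutation test, adjusted p = 0.0468 and 0.0147). The first had an unadjusted p of 0.0233 (exact permutation test) and shares its adjusted p with oral-aboral tests at the smallest possible p. Some of those p were fixed but count in the adjustment, so every call at 0.0468 leans on them in part. The adjustment without the fixed tests was not made. Both ratios rest on few counts along the arm: the first passed in 6 of 14 tests that left out 1 section and missed without sections 20 to 22 (exact permutation test, 1.15, adjusted p = 0.204). The second passed in all 14 and missed without sections 20 to 22 (exact permutation test, 2.13, adjusted p = 0.0764), and with 2 added to each count it was 1.57. In the left-right series they differed by 0.31 ± 0.38 and 0.72 ± 0.40 (exact permutation test, adjusted p = 0.448 and 0.0958). Lhx1-5 over Otp passed on no axis. It differed by -0.08 ± 0.31 between inner and outer sections, 0.41 ± 0.29 between central and outer sections and 1.07 ± 0.53 between the proximo-distal windows (exact permutation tests, adjusted p = 0.743, 0.181 and 0.0958). The 18 comparisons share counts, since each gene enters 3 pairs, and the sections compared were not independent.

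**Figure D4:**
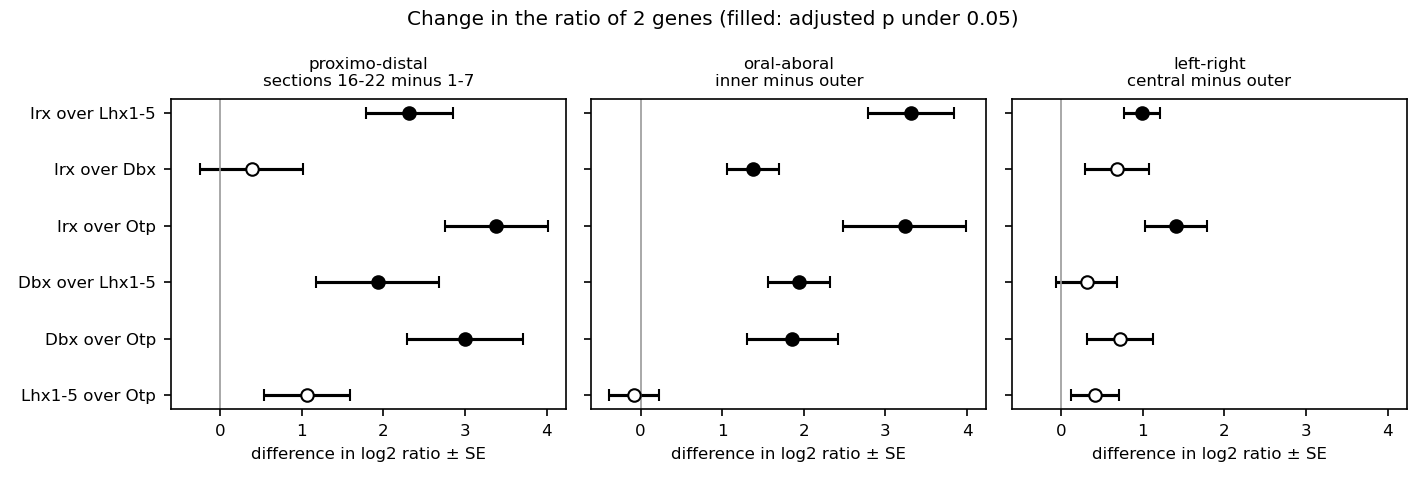
Difference in mean log2 ratio of counts (horizontal axis, ± SE) for the 6 pairs of genes between windows of the proximo-distal (16 to 22 minus 1 to 7), oral-aboral (inner minus outer) and left-right (central minus outer) series. Filled points passed an adjusted p of 0.05 in the exact permutation test. Irx over Lhx1-5 and Irx over Otp are filled in all 3 panels, and Lhx1-5 over Otp is open in all 3. In the oral-aboral panel the p of the first pairs named was fixed, since each gene alone did not overlap between the windows. That of Dbx over Lhx1-5 was fixed too, by the levels of both genes.

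The levels of the 4 genes across sections were also set beside the other symbol-named genes past the filter, by Spearman's rho over the sections. These are descriptions, since sections of a series share an arm and their neighbours. On the oral-aboral axis (8 sections, 62 genes) Otp was the gene most like Lhx1-5, at 0.952, and Lhx1-5 the most like Otp. Dkk3, a secreted protein of the Dickkopf family, the ligand FGF8-17-18 and the homeobox gene Hbn tied at 0.905 with Lhx1-5. With Otp, Dkk3 had 0.905, and FGF8-17-18 and Hbn tied at 0.857. Hox8 was the gene most like both Irx, at 0.905, and Dbx, at 0.929, and Irx and Dbx reached 0.881 with each other. Hox11-13a reached 0.898 with Irx, and FoxG, a forebrain factor in vertebrates, 0.857 with Dbx. Irx had -0.786 with Lhx1-5 and -0.833 with Otp.

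Along the arm (22 sections, 44 genes) the paired-box gene Pax2-5-8, which acts at the midbrain-hindbrain boundary in vertebrates, was the most like Lhx1-5, at 0.839, followed by Wnt3 at 0.764 and the protease gene Tolloid at 0.697. Hox1 was the most like Irx, at 0.640, before Lmx and Sfrp1-5, a secreted Wnt antagonist, at 0.536 each. Irx and Lhx1-5 had -0.0198. In the left-right series (16 sections, 53 genes) the leading genes were FoxG at 0.726, Chordin at 0.697 and Gbx at 0.691 for Irx, and Hox1 at 0.718, Hox5 at 0.694 and Hbn at 0.685 for Lhx1-5. Otp was led by Pax2-5-8 at 0.679, Hox11-13d at 0.615 and Hox5 at 0.571. For Dbx no gene passed 0.432 (Hbn), with Lmx at 0.424 and Lhx3-4 at 0.397.

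Pax2-5-8 is also one of 10 other genes of intermediate neural domains that were followed as a list. Of the 7 tested along the arm, 0 rose and 3 fell: Pax2-5-8 by 2.02 ± 0.24, FGF8-17-18 by 1.31 ± 0.25 and the eye factor Pax6 by 2.93 ± 0.68 on the log2 scale (edgeR, adjusted p = 2.15e-07, 0.000128 and 0.00127). Of the 10 tested on the oral-aboral axis, 3 were higher inside (Otx, Dmbx and Pax6) and 2 higher outside. These were Pax2-5-8 at -2.47 ± 0.21 and FGF8-17-18 at -1.02 ± 0.19 (edgeR, adjusted p = 6.58e-05 and 0.00174), on the same side as Lhx1-5 and Otp. Of the 10 tested in the left-right series, 5 were higher centrally and 1, Pax2-5-8, was higher at the edges, at -1.69 ± 0.26 (edgeR, adjusted p = 0.000164). Over all loci 20.3% rose and 19.1% fell along the arm. Inside 27.0% were higher and 23.3% lower, and centrally 12.9% were higher and 8.96% lower. The medians of the list were -0.98, 0.66 and 1.09 along the 3 axes, against 0.01, 0.07 and 0.12 over all loci. Between the faces 1 of the 10 was higher towards section 8 (Pax2-5-8) and 5 lower, with a median of -2.79 against -0.04, a contrast on which none of Irx, Dbx, Lhx1-5 and Otp passed. On the left-right slope 4 of the 10 rose and 0 fell, with a median of 0.86 against -0.0009. Over all loci 5.68% were higher and 2.74% lower between the faces, and 0.920% rose and 0.151% fell on the slope.

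Of 13 anterior neural genes, 8 were tested along the arm, and 6 rose while 1, Msx, fell by 2.05 ± 0.59 on the log2 scale (edgeR, adjusted p = 0.00681). Those that rose included the Wnt receptor gene Fzd5-8, at 4.67 ± 0.70, and the forebrain factor Nkx2.1, at 1.82 ± 0.33 (edgeR, adjusted p = 6.52e-06 and 9.80e-05). Of 11 tested on the oral-aboral axis, 9 were higher inside and 0 lower. Of 9 tested in the left-right series, 7 were higher in the middle and 1 lower (Msx). The medians were 2.09, 3.10 and 3.36, against 0.01, 0.07 and 0.12 over all loci. Of all loci, 20.3% rose and 19.1% fell along the arm, 27.0% were higher and 23.3% lower inside. In the middle of the left-right series 12.9% were higher and 8.96% lower. Between the faces 0 of 11 were higher towards section 8 and 2 lower (FezF and Sfrp1-5), with a median of -0.12, and 0 of 9 passed on the left-right slope, in either direction. Of the 13 Hox genes, which pattern the main body axis in most bilaterians, 9, 12 and 9 were tested. Along the arm 1 rose (Hox1) and 1 fell (Hox5). On the oral-aboral axis 4 were higher inside and 2 outside (Hox11-13d and Hox5), and in the left-right series 3 were higher centrally and 4 at the edges. Their medians were 0.04, 0.29 and -0.34, against the same 0.01, 0.07 and 0.12 over all loci. Along the arm and on the oral-aboral axis the Hox counts are of the order of the shares of all loci. Between the faces 2 were higher towards section 8 (Hox11-13b and Hox11-13d) and 0 lower, where 5.68% of all loci were higher and 2.74% lower.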

How the data were processed

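Polyadenylated RNA of 46 arm sections was sequenced; per the labels' protocols, libraries followed an Iso-Seq Express protocol. Whether the counted reads came from these libraries was not examined. The file deposited by the authors gives unnormalised whole-number counts for 25794 transcript models. Which mapper, counting tool and genome build were used is not given in the sources used here. Models of the same locus were added up, which concerned 1925 loci with 2 rows. Lowest chi-square per degree of freedom between libraries of a series was 1.30, so none was taken as a repeat.

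Each series was fitted alone with edgeR 4.0.16 in R 4.3.3 (filterByExpr, minimum count 5 and total 15, TMM, quasi-likelihood test, Benjamini-Hochberg at 0.05). Position was fitted as a line (proximo-distal), as a line plus its square, or as a spline with 3 degrees of freedom. DESeq2 1.42.0 and limma 3.58.1 were alternatives. Ratios were tested with scipy 1.17.1. Intervals are exact, at 95%, and, like floors of 3 counts for a count of 0, cover counting error only. They treat each count as a separate molecule. Whether the counted reads carried molecular identifiers was not examined. The scripts were tested on simulated data.

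Genes named are the 4, for each the 3 named genes of highest Spearman's rho (and ties with the last), and called genes of the lists (up to 4 by p). The members, lists and windows were chosen with earlier results of these data known. It was not examined whether unnamed rows share reads with the named ones.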

Additional observations from a re-analysis of the deposited data

Results flagged for a closer look

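In 28 windows of sections tested for a lone extreme value, 3 values stood far from the rest of their window. The rule flags about 1 in 20 windows of independent, normally spread values. Sparse counts of neighbouring sections are not such values, so the 3 cannot be set against that rate. Dbx had 54.3 normalised CPM in proximo-distal section 22, and the next highest of sections 16 to 22 was 12.8, in section 21. Otp had 3.02 normalised CPM in section 22, which is 1 count, and 0 in the other sections of that window. Dbx had 0 counts in left-right section 14, the shallowest library of the series, where the next lowest of the outer sections was 4.29 normalised CPM. The causes were not tested.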

How the results depend on the processing

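Of the results on Irx and Lhx1-5 in the oral-aboral middle and on Lhx1-5 along the arm, direction and call held under all alternatives. Inner over outer and middle over edges stand here for the fitted curvature, except where groups of sections are named. Without both end sections, log2 values were -0.16 for Dbx along the arm and 0.49 (Dbx) and -2.20 (Otp) for inner over outer. Between the faces they were 2.23 (Irx) and 0.50 (Lhx1-5). For middle over edges they were 1.31 (Irx), -0.76 (Lhx1-5), -1.13 (Otp) and 0.12 (Dbx). The inner-over-outer calls of Dbx and Otp and the middle-over-edges calls of Lhx1-5 and Otp were lost. Irx was now called between the faces and for middle over edges. The adjusted p of any pattern was then 0.346 (Dbx, proximo-distal), 0.240 (Otp, oral-aboral) and 0.136 (Lhx1-5, left-right), and 6242 loci were called for inner against outer, 639 between the faces and 4621 for any oral-aboral pattern. The oral-aboral ratios were 2.70 (Irx over Lhx1-5), 1.33 (Irx over Dbx), 2.40 (Irx over Otp), 1.36 (Dbx over Lhx1-5) and 1.07 (Dbx over Otp), all no longer called, with few sections to limit p, and the proximo-distal ratios 1.28 (Dbx over Lhx1-5, call lost) and 1.41 (Lhx1-5 over Otp, now called).

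Without proximo-distal sections 20 to 22, chosen after seeing the data, the line gave log2 changes of -0.13 (Irx, call lost) and -0.88 (Dbx). The edgeR adjusted p of any pattern was 0.212 (Irx) and 0.486 (Dbx), both calls lost. The log2 differences of the ratios were 1.42 (Irx over Lhx1-5), 1.15 (Dbx over Lhx1-5) and 2.13 (Dbx over Otp), all 3 no longer called. With total count scaling, face differences were called for 2879 loci (775 higher and 2104 lower, against 1158 and 559) and slopes for 284. The log2 value of Dbx was -0.021 between the faces. For middle over edges, log2 values were 0.98 (Irx, now called), -0.27 (Lhx1-5, call lost), -0.75 (Otp, call lost) and 0.12 (Dbx). The edgeR adjusted p of any pattern was 0.0278 (Dbx, oral-aboral), 0.0323 (Irx, left-right) and 0.163 (Lhx1-5, left-right, call lost). That scaling put the median of all loci at -0.66 along the arm, 0.32 for inner over outer and -0.41 between the faces, and split the calls as 1063 higher and 3827 lower along the arm, 6785 and 3499 for inner over outer, and 4190 and 737 for middle over edges. With no low-count filter the log2 values of Lhx1-5 were 0.033 between the faces and -0.63 for middle over edges. That of Otp was -1.10 for middle over edges. The edgeR adjusted p for any left-right pattern of Lhx1-5 was 0.0559. Both middle-over-edges calls and the pattern call were lost. Between the faces Lhx1-5 had 0.033 with RLE factors, 0.031 in DESeq2 and 0.050 without the dominant locus. With log2 total count as a covariate the log2 values along the arm were 2.38 (Dbx, now called) and -2.72 (Otp, call lost). The edgeR adjusted p for any pattern of Otp along the arm was 0.0744 (call lost). Otp had a log2 value of -1.09 in middle over edges (call lost). As groups of sections Dbx had 0.44 for inner over outer, a straight line alone called 162 loci between the faces, and limma-trend called 52 slopes (177 in edgeR) and gave Dbx a slope of -0.22. A pseudocount of 2 gave -0.10 for proximo-distal Lhx1-5 over Otp and 0.78 for left-right Irx over Dbx. A minimum count of 10 left tests for 37 results, all with the same call.

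Leaving out 1 section gave 627 to 2004 face calls. For inner over outer Dbx lay between 0.55 and 0.76, between the faces Irx between 0.75 and 2.40 and Lhx1-5 between -0.27 and 0.50, and for middle over edges Irx between 0.51 and 0.94, Lhx1-5 between -0.78 and -0.56 and Otp between -1.40 and -0.84. The edgeR adjusted p of any pattern lay between 0.000464 and 0.272 (Dbx, proximo-distal) and between 0.00772 and 0.122 (Lhx1-5, left-right). Oral-aboral ratios lay between 2.96 and 3.67 (Irx over Lhx1-5), 1.20 and 1.58 (Irx over Dbx), 2.78 and 3.84 (Irx over Otp), 1.63 and 2.17 (Dbx over Lhx1-5), 1.45 and 2.26 (Dbx over Otp) and -0.25 and 0.17 (Lhx1-5 over Otp). The first 5 lost their call each time, since 3 against 4 sections cannot give an exact p below 0.0571. Proximo-distal ratios lay between 1.43 and 2.19 (Dbx over Lhx1-5) and 0.83 and 1.33 (Lhx1-5 over Otp), and left-right ratios between 0.51 and 0.96 (Dbx over Otp) and 0.55 and 0.93 (Irx over Dbx). Apart from that limit, the causes were not tested.

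No paired analysis was possible because section numbers name positions along different axes, not replicates. Depth limits Dbx and Otp most: along the arm they had 70 and 33 counts.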
